A study of Homo sapiens with 72 samples.

Results

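Cytoplasmic mRNA of A375 cells was followed for 3 h after transcription was stopped with triptolide in complete medium, to see which transcripts were lost first and which were kept. A375 is an established human skin melanoma line. The samples are the 6 libraries of the pQ T arm at 0 and 3 h, of 72 in the series, taken from the sample titles as 3 replicates at each time. The pQ cells received fresh medium containing glutamine 18 h before treatment. All 6 libraries came from cells given triptolide at 25 µM (spelled tryptolide in the labels) without cycloheximide, and the 0 h cells were harvested as soon as it was added. Beside them stand the 6 pQ libraries with triptolide and cycloheximide at 100 µg/ml (TCHX arm) and the 6 libraries of the siGL2 T arm, from cells transfected with a control siRNA 42 h before triptolide. The cells of these groups were A375 grown in DMEM with serum and glutamine, and the labels name no engineered allele. The stable genes below also use mQ cells, which were given glutamine-free medium 18 h before treatment. Sums over all 72 libraries include these and the siCTU2 cells, transfected 42 h before triptolide with siRNA against CTU2.

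The amount of an mRNA in the cytoplasm is set by its synthesis and its decay, so once RNA polymerase II is blocked the loss of a transcript follows its decay. Short-lived mRNAs typically encode transcription factors and feedback regulators, whose level a cell can then change quickly. Long-lived mRNAs typically encode ribosomal proteins, metabolic enzymes and structural proteins. Sequences in the 3′UTR, in particular AU-rich elements built on ATTTA, recruit proteins such as the ZFP36 family and with them the CCR4-NOT deadenylase, and many short-lived mRNAs are also degraded in a translation-dependent manner. Cycloheximide stops ribosome elongation and is used to see that dependence.

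The libraries were QuantSeq libraries, which count 1 tag near the polyadenylated 3′ end of a transcript. They held from 8762978 to 12328681 counts, with counts for 16002 to 16766 genes. Levels are given as CPM, counts scaled to an equal library total. Replicates correlated across 12309 genes, which are not independent replicates, with r of log2 CPM between 0.971 and 0.983. Of the markers checked at 0 h, MITF (357 ± 22.6 CPM, SD, n = 3) and SOX10 (258 ± 37.1 CPM) of the melanoma lineage were present. The pigmentation genes were mixed, with MLANA (0.296 CPM) and TYR (0.503 CPM) near 0, PMEL at 4.67 CPM, DCT at 96.0 CPM and GPNMB at 138 CPM. KRT5, KRT14, KRT1, CDH1 and TP63 of keratinocytes and epithelia had 0 counts, and KRT10 stood at 204 ± 27.0 CPM. Of 6 fibroblast markers COL3A1 and THY1 had 0 counts and 3 were above 1 CPM, LUM (4.74), FAP (3.96) and PDGFRA (2.92), and the 6 summed to 10.9 to 12.4 CPM. The summed level of 20 melanoma lineage genes was 1532 to 1720 CPM at 0 h and 1302 to 1394 CPM at 3 h. A change over time is a log2 ratio of 3 h to 0 h with the typical gene set to no change (TMM scaling), so it says how a transcript behaved relative to the others. Fewer cells and less mRNA per cell cannot be told apart in such data. The labels do not say whether replicates were separate cultures, so p-values measure the spread between these samples.

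Short stretches of the 3′UTR around ATTTA are given first for 6 transcripts that fell, as examples of the element that the counts by decay class below refer to. Each line reads 5′ to 3′ on the strand of the gene, with the bases of ATTTA in capitals, from the GRCh38 genome and the GENCODE transcript of the gene.
RGS16: ctgtttaaatATTTATTTAttgtgacaaa
FOS: tgtgtttttaATTTATTTAttaagatgga
NFKBIA: accacattttatATTTAttgtgcttcgag
JUN: ttgcttatgaatATTTAtaacagcattct
ZFP36L1: cttATTTAacttatcaaaacgtATTTAtt
DUSP6: tttagagctggaATTTAttataagaatgt

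The RGS16 stretch lies at chr1:182598721-182598749 on the minus strand and the FOS stretch at chr14:75282058-75282086 on the plus strand, and in both the 2 ATTTA copies overlap. The stretches of NFKBIA (chr14:35401699-35401727), JUN (chr1:58780819-58780847), ZFP36L1 (chr14:68788346-68788374) and DUSP6 (chr12:89348102-89348130) all lie on the minus strand. The whole 3′UTR held 5 ATTTA copies in RGS16 and in FOS, 3 in NFKBIA and in JUN, 8 in ZFP36L1 and 1 in DUSP6. A match is a run of letters and not a measured binding site.

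Of 12309 genes tested, 1821 (14.8%) were lower at 3 h and 1064 (8.64%) were higher relative to the typical gene (edgeR quasi-likelihood test, adjusted p under 0.05). With the replicate number as a block these counts were 2335 and 1873. The distribution was lopsided. The lowest 1% of genes lay under −3.10 and the highest 1% above 1.47 on the log2 scale, while the middle range from the 25th to the 75th percentile was only −0.34 to 0.20. There were 937 genes called with a fall of more than 2-fold (7.61% of those tested), 370 with more than 4-fold and 129 with more than 8-fold. On the other side 143 genes were called above 2-fold, and 102 of them stood under 1 CPM at 0 h.

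**Figure D1:**
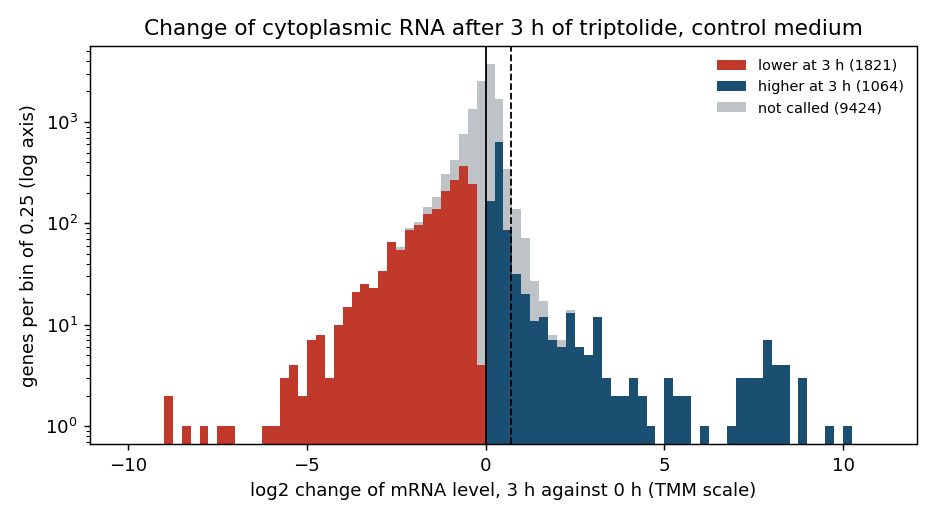
Number of genes per bin of log2 change (vertical log axis) against the log2 change from 0 h to 3 h on the TMM scale (horizontal axis) for 12309 tested genes, with the 1821 genes called lower in red, the 1064 called higher in blue and the rest in grey. The solid line marks no change on the TMM scale and the dashed line, 0.71 above, no change on the stable-gene scale, and 129 genes were called below −3 against 63 above 3.

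The same libraries were also scaled to 82 stable genes, defined after the study's methods as genes whose CPM was at least 1.1 times its 0 h value at a later time in both arms of the pQ and mQ experiments. Because these genes were selected for rising CPM in part in the same libraries, this is a second reference and not an independent one. On it, the median of the tested genes was −0.58, −0.67 and −0.92 in the 3 same-numbered pairs (mean −0.72, SD 0.17), 9576 genes were lower and 96 were higher. Every change below is on the TMM scale unless the stable-gene scale is named. A value above 0 on the TMM scale places a gene above the typical mRNA and does not say that new mRNA was made.

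DUSP2, a nuclear phosphatase of MAP kinases, stood at 6.76, 6.84 and 6.002 CPM at 0 h and had 0 counts in all 3 libraries at 3 h. Its level was at least 20.5-fold lower, taking 3 counts per library as the floor. EBLN2, a gene of viral origin, went from 262 counts to 1 over the 3 libraries, a ratio of levels of 232 with a 95% counting interval of 41.3 to 9206. Its value is uncertain, since the strand setting of the counting is not known and reads of an overlapping transcript could enter.

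DUSP6, the cytoplasmic phosphatase of ERK, was the clearest case at a high level. It stood at 336.4, 304.7 and 316.2 CPM at 0 h and at 7.49, 6.73 and 5.89 CPM at 3 h. The ranges lie far apart, and the change was −5.46 ± 0.112 (SE, adjusted p = 4.59e-15), or 2.27% of its 0 h level relative to the typical gene. MYC, the growth-promoting transcription factor, had 17.1, 19.1 and 19.0 CPM at 0 h and 0.422, 0.571 and 0 CPM at 3 h, a fall of 5.68 on the log2 scale (SE 0.409, adjusted p = 3.46e-08). MIR17HG, the host transcript of a microRNA cluster, fell by 5.52 on the log2 scale, from 19.5 to 25.7 CPM at 0 h down to 0.317 to 0.499 CPM. SNAI2, a repressor of epithelial genes that is active in neural crest and melanocytes, was at 34.2, 28.9 and 27.4 CPM and then at 0.633, 0.685 and 0.699 CPM, a change of −5.35 ± 0.252.

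ADM, which encodes the peptide hormone adrenomedullin, fell from 31.3, 26.9 and 34.2 CPM to 0.739, 1.03 and 0.399 CPM (−5.31 ± 0.272). NFKBIZ, an inducible nuclear IκB protein, fell by 4.95 on the log2 scale and RGS16, a brake on G-protein signalling, by 4.86. FOXD3, a neural crest forkhead factor, changed by −4.82 and ZNF574, a zinc finger gene, by −4.81. BIN3-IT1, a transcript named for lying within BIN3, changed by −5.17. The strand setting of the counting is not given in the sources used here, so reads of BIN3-IT1 and of its host cannot be told apart with certainty. None of these genes overlapped between 0 h and 3 h. They were chosen as the largest falls among called genes that were lower in all 3 pairs, so this adds no support.

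**Figure D2:**
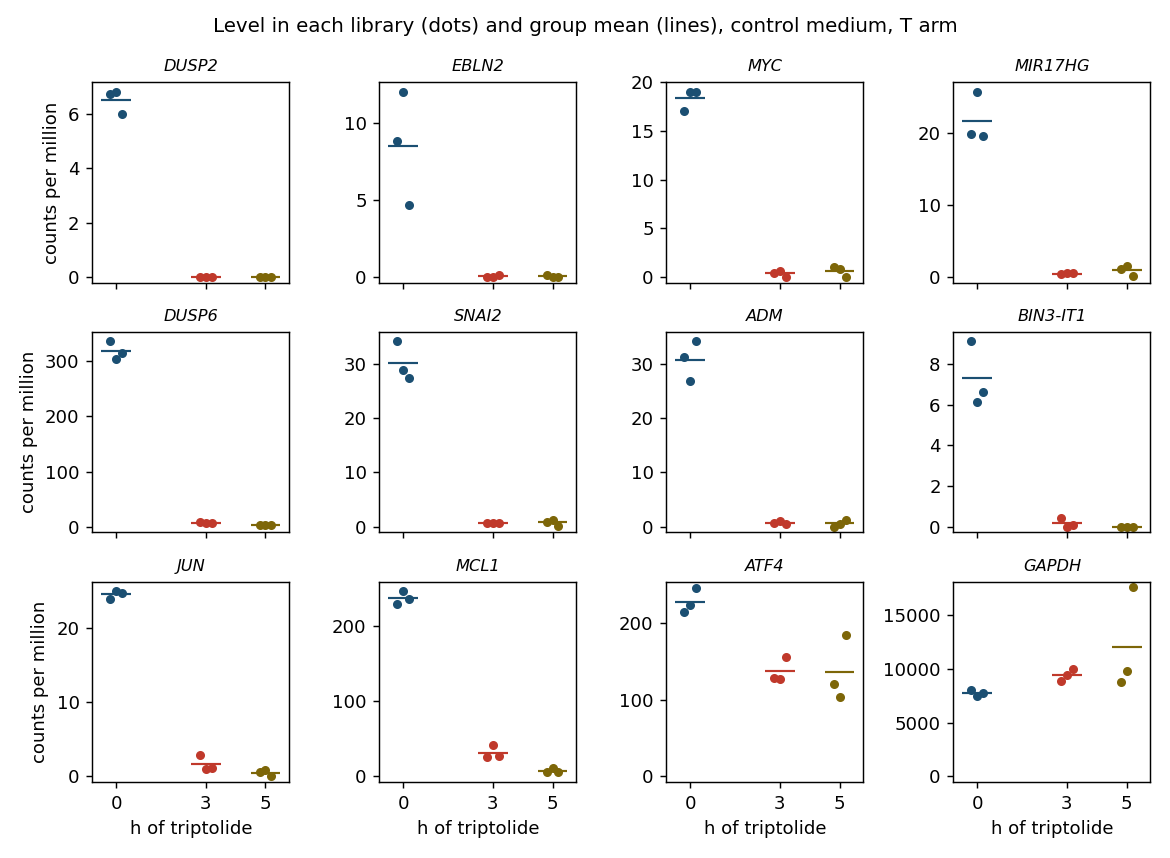
Level in CPM (vertical linear axes, one scale per panel) at 0, 3 and 5 h of triptolide, with a dot for each library and a line for the mean of 3, for the 8 fastest genes and for JUN, MCL1, ATF4 and GAPDH. DUSP6 goes from 304.7 to 336.4 CPM down to 5.89 to 7.49 CPM by 3 h, while GAPDH is at 7506 CPM or more in all libraries.

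If loss is exponential and synthesis is nil, 3 h divided by the size of the log2 fall gives a half-life relative to the typical gene. By this measure DUSP6 had 33.0 min, HES1 40.0 min, JUN 47.8 min, FOS 48.6 min, KLF6 56.4 min, IER2 59.96 min, MCL1 64.2 min and ZFP36L1 76.3 min. On the stable-gene scale the values were shorter, with 29.2 min for DUSP6, 40.2 min for JUN, 51.5 min for MCL1 and 58.9 min for ZFP36L1. Exponential loss was not tested, and by the 5 h value given below DUSP6 fell more slowly after 3 h than before.

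Functional classes were then described over lists of genes by the share called and by the median change, beside the 14.8% and 8.64% of all tested genes and a median of about 0. The lists were chosen with earlier results of these data known. Their order and shares are therefore descriptions and add no support. The fastest class of more than 3 genes was the AP-1 and immediate early list, transcription factors and inducible genes that answer growth signals within minutes. Of its 21 tested members 20 fell and 0 were higher, with a median of −2.11. The median was −2.17 ± 0.18 over the 3 same-numbered pairs (SD). On the stable-gene scale the median member kept 14.6% of its 0 h level.

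JUNB, JUN, IER5L, FOS, IER5 and CCN1 were the fastest, with changes from −3.91 to −3.66. JUNB had 37.8, 36.7 and 38.4 CPM at 0 h and 2.43, 3.08 and 1.498 CPM at 3 h (−3.91 ± 0.213, adjusted p = 1.22e-09). JUN went from 23.9, 25.0 and 24.8 CPM to 2.85, 1.03 and 1.099 CPM (−3.77 ± 0.286, adjusted p = 6.35e-08). FOS, the partner of JUN in AP-1, went from 10.6, 13.3 and 9.49 CPM to 1.69, 0.685 and 0 CPM (−3.70 ± 0.513). The 0 h and 3 h levels of these 3 genes do not overlap, and few counts were left at 3 h. IER2 stood at 68.4, 88.2 and 84.0 CPM and then at 5.59, 10.0 and 12.1 CPM (−3.002 ± 0.201). At the slow end of the list MAFG changed by −0.72 and SRF by −0.51, both called, and JUND by −0.25 ± 0.14, which did not pass the test (adjusted p = 0.231). The call of SRF was lost without replicate 2 at 0 h (−0.37). The levels of JUND, 33.8 to 38.8 CPM at 0 h and 25.6 to 32.5 CPM at 3 h, lay close together. The members of this list thus spanned changes from −3.91 to −0.25.

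Feedback inhibitors of signalling formed the next group. Of 18 tested ERK pathway feedback genes 13 fell and 1 was higher, with a median of −1.16 that does not depend on how far DUSP2 fell. DUSP1, which removes phosphate from MAP kinases after stress, changed by −4.69 ± 0.606 from only 4.72 to 6.06 CPM. ETV4, an ETS factor that is a transcriptional target of ERK, was the exception at 0.34 on the TMM scale and −0.38 on the stable-gene scale. In the NF-kB list 9 of 16 genes fell and 0 were higher, with a median of −0.74. NFKBIZ, described above, and NFKBIA were its fastest members, while TNIP1, another inhibitor of the pathway, was at 0.25 and did not pass the test (adjusted p = 0.21). NFKBIA, which encodes the IκB protein that holds NF-kB in the cytoplasm, had 47.4, 51.9 and 47.9 CPM at 0 h and 1.48, 2.40 and 1.80 CPM at 3 h (−4.59 ± 0.194, adjusted p = 1.27e-10). IRF1, an interferon-regulated transcription factor, fell by 2.96 on the log2 scale. Of 9 SOCS and PIAS genes, inhibitors of cytokine signalling, 6 fell. SOCS3 changed by −4.68 and SOCS6 by −2.02.

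The ID and TGF-beta feedback list had 12 of 15 genes lower and 0 higher, with a median of −1.79. After SNAI2 came ID1, an inhibitor of basic helix-loop-helix factors, from 62.5, 42.2 and 39.7 CPM to 2.32, 2.62 and 3.69 CPM (−3.93 ± 0.23), and SNAI1 with −3.93 ± 0.283. SKI, a co-repressor in the same list, was at 97.7 to 103 CPM and then at 83.4 to 94.9 CPM, a change of −0.06 that did not pass the test. HES1, the main Notch-induced repressor, stood at 157, 140 and 143 CPM and then at 8.23, 5.14 and 4.59 CPM (−4.50 ± 0.158, adjusted p = 1.27e-11). In its list of 9 Notch genes 3 fell, HES1, HEY1 (−1.72) and HEY2 (−1.65), and the median was −0.40. HES4, of the same family as HES1, was the highest member at 0.36 and was not called.

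A list of genes whose products themselves act on mRNA stability was among the fast ones. In the list of ZFP36 and BTG/TOB adaptors, which bring the CCR4-NOT deadenylase to mRNAs, 6 of 8 members fell and the median was −1.88, or −1.25 over the 6 members with a mean of at least 50 counts. ZFP36L1, which binds AU-rich elements, stood at 182, 197 and 216 CPM at 0 h and at 35.1, 42.5 and 30.2 CPM at 3 h (−2.36 ± 0.116, adjusted p = 4.05e-10). TOB2 changed by −2.27, ZFP36L2 by −1.49 and BTG1 by −1.02. BTG3 differed from these with −0.20 and did not pass the test (adjusted p = 0.142). The 20 tested subunits of CCR4-NOT and the decapping complex had a median of 0.00 beside these adaptors, with CNOT4 and DCP1A the 2 that fell.

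Stress and growth-arrest genes split by member. Of 3 tested genes in the GADD45 list GADD45B and GADD45A fell. GADD45B, which acts in stress signalling to p38, had 12.2, 13.8 and 12.5 CPM and then 0.422, 0.456 and 0.399 CPM (−4.77 ± 0.338). GADD45A changed by −1.76, while GADD45GIP1, which shares only the name, was at 0.23 and not called. Of 5 genes with C/EBP names 4 fell, DDIT3 (−2.54), CEBPB (−2.12), CEBPD (−1.60) and CEBPG (−1.26). In the list of p53 targets 11 of 23 fell, led by PLK2, a polo-like kinase (−3.11), and BBC3, the pro-apoptotic protein PUMA (−2.54), and DDB2 was higher by 0.34 on the TMM scale and lower by 0.36 on the stable-gene scale. DDB2 lost its call in 3 of the 6 fits that left out 1 library (0.29 to 0.34 in those fits).

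MCL1, an anti-apoptotic protein of the BCL2 family with a short-lived mRNA, stood at 228, 246 and 235 CPM at 0 h and at 26.1, 41.7 and 26.7 CPM at 3 h (−2.80 ± 0.138, adjusted p = 4.05e-10). Its list of 14 BCL2 family genes had a median of only −0.21, so MCL1, like BBC3, stood well below most of its list. CLK1, a kinase of splicing factors, changed by −3.56 and CCNL1, the cyclin L1 that works in the same process, by −3.06. MED26 fell by 3.00 on the log2 scale in a list of 42 RNA polymerase II, mediator and P-TEFb genes with 7 lower, 7 higher and a median of −0.06. KLF6 (−3.19) and KLF10 (−2.70) were the fastest of 12 Krüppel-like factors, of which 6 fell, with a median of −0.89.

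The largest class was that of the ZNF genes, most of which encode C2H2 zinc finger transcription factors. Of 359 tested, 210 fell and 2 were higher, with a median of −0.99 that was −0.97 to −1.03 in the 3 pairs. The share called lower was 58.5%, against 14.8% of all genes. ZNF574, ZNF296 (−4.18) and ZNF773 (−4.13) were the fastest with at least 50 counts. The 2 higher genes were ZNF414 (0.52) and ZNF511 (0.38), which were lower on the stable-gene scale (−0.19 and −0.32). ZNF414 lost its call in 5 of the 6 fits that left out 1 library (0.41 to 0.58 in those fits), and ZNF511 in 4 of 6 (0.31 to 0.38). The IRF2BP family, co-repressors with 2 of 3 members lower, had IRF2BPL at −2.35 and IRF2BP2 at −2.09, from 95.3, 96.3 and 88.7 CPM to 22.1, 18.6 and 20.4 CPM.

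Genes that respond to amino acid shortage were listed as well, since the medium of the pQ cells is the control for glutamine deprivation in the series. Of 20 tested, 7 fell and 2 were higher, with a median of −0.19. DDIT4, an inhibitor of mTORC1, stood at 28.8, 42.9 and 47.0 CPM and then at 1.48, 1.71 and 1.90 CPM (−4.42 ± 0.244, adjusted p = 1.33e-09). ATF4, the transcription factor that drives the response, went from 215, 223 and 246 CPM to 129, 127 and 156 CPM (−0.62 ± 0.0986, adjusted p = 0.000209). SHMT2, an enzyme of serine metabolism, was higher by 0.36 and SLC7A5, an amino acid transporter, by 0.32. On the stable-gene scale both were lower (−0.35 and −0.40), and SLC7A5 lost its call in 4 of 6 fits without 1 library (0.23 to 0.29). The 2 regulators named here had lower changes than the enzyme and the transporter. They do not stand for the list, whose highest member was NUPR1 at 0.56.

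Melanoma transcription factors fell as well. MITF, which controls the melanocyte lineage, stood at 370, 331 and 370 CPM and then at 216, 195 and 206 CPM (−0.69 ± 0.0782, adjusted p = 7.1e-06). SOX10 changed by −0.87 and TFAP2A by −1.21. In the list of 13 tested lineage genes PAX3 was the fourth that fell (−0.77, not called in 3 of 6 fits that left out 1 library), S100A1 and S100B were higher by 0.42 and 0.23, and the median was 0.05. The calls of S100A1 (0.26 to 0.43) and S100B (0.19 to 0.24) were lost in 3 and in 4 of these 6 fits, and both genes were lower on the stable-gene scale (−0.30 and −0.48). SOX9, a factor of the dedifferentiated state, fell from 773, 709 and 673 CPM to 230, 277 and 156 CPM (−1.60 ± 0.135). In the SOX list of 10 genes SOX9, SOX4 (−1.51) and SOX10 fell and SOX5 was higher by 0.39 (−0.32 on the stable-gene scale).

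**Figure D3:**
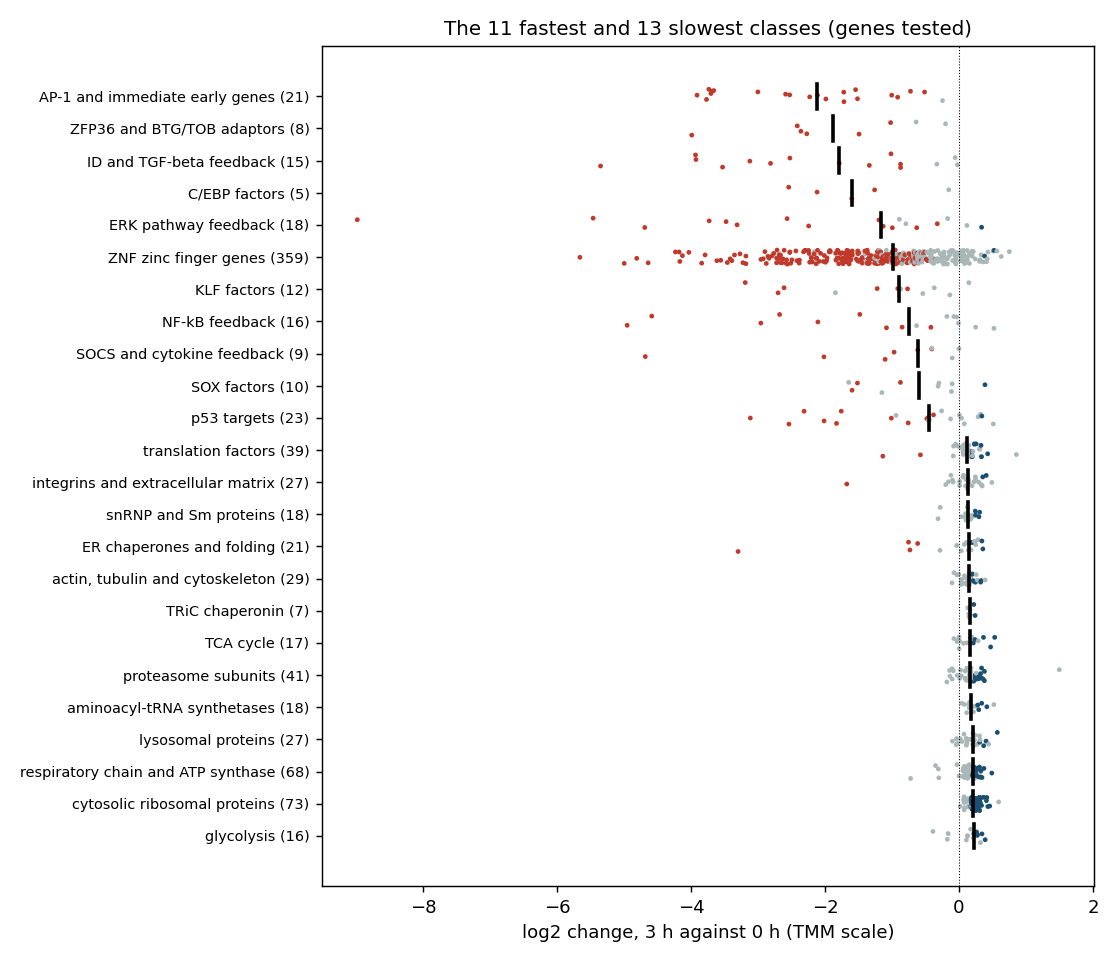
Log2 change at 3 h on the TMM scale (horizontal axis) of every tested gene (dots) in the 11 fastest and 13 slowest lists with at least 5 tested genes, with the number tested in brackets and the list median as a black bar. Red dots were called lower, blue dots higher and grey dots were not called, and the AP-1 median sits at −2.11 while the ribosomal protein and glycolysis medians sit at 0.21 and 0.22 (−0.50 and −0.51 on the stable-gene scale).

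At the slow end stood the translation apparatus and central metabolism. Of 73 tested cytosolic ribosomal protein genes 53 were higher and 0 were lower, with a median of 0.21 on the TMM scale and −0.50 on the stable-gene scale, where the median gene kept 70.7% of its 0 h level. The lowest of the 73 was RPL34 at 0.02. RPL27A stood at 3387, 3183 and 3692 CPM at 0 h and at 3934, 4119 and 4760 CPM at 3 h (0.43 ± 0.0737, adjusted p = 0.000418). All 3 libraries at 3 h were above those at 0 h. RPS10 changed by 0.46. Both genes were lower on the stable-gene scale, with −0.29 and −0.25. Ribosomal protein genes have many near-identical copies in the genome among which reads could be divided, so the value of a single gene is less certain than that of the class.

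The respiratory chain and ATP synthase list had 27 of 68 genes higher and 0 lower, with a median of 0.21 on the TMM scale and −0.51 on the stable-gene scale. NDUFA13, a subunit of complex I, had 185, 173 and 170 CPM and then 225, 224 and 237 CPM (0.49 ± 0.0784, −0.22 on the stable-gene scale). Only nuclear genes are covered, since 0 mitochondrially encoded genes were in the table. In glycolysis 6 of 16 genes were higher and 0 lower, with a median of 0.22 on the TMM scale and −0.51 on the stable-gene scale. GAPDH stood at 7994, 7506 and 7772 CPM and then at 8902, 9373 and 9983 CPM (0.39 ± 0.0517, adjusted p = 3.45e-05, −0.32 on the stable-gene scale). The values of the 2 times do not overlap. TPI1, another glycolytic enzyme, changed by 0.34 (−0.36 on the stable-gene scale).

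Proteasome subunits had 14 of 41 genes higher and 0 lower (median 0.17 on the TMM scale, −0.54 on the stable-gene scale). The highest of them, PSMC4 at 1.498, was not called and rested on 22.3 CPM in 1 library against 2.05 and 3.30 CPM in the other two. Lists of snRNP proteins, the TRiC chaperonin, the TCA cycle, aminoacyl-tRNA synthetases and lysosomal proteins had 0 genes lower and medians from 0.14 to 0.21, which lay between −0.56 and −0.51 on the stable-gene scale. Cytoskeletal genes had 6 of 29 higher and 0 lower. Their best known member ACTB was higher by 0.17 ± 0.0525 (adjusted p = 0.0253), a call lost in 3 of 6 fits without 1 library (0.16 to 0.17) and turned to −0.54 on the stable-gene scale. EEF1A1, the main elongation factor, was at 0.10 ± 0.0622 and did not pass the test (adjusted p = 0.273).

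Some lists held both slow and fast members. Among 39 translation factors 8 were higher and 2 fell, the initiation factors EIF4A2 (−1.14, from 113, 132 and 120 CPM to 54.3, 59.8 and 39.9 CPM) and EIF5 (−0.57). PABPC1, the poly(A)-binding protein, was at 0.43 (−0.29 on the stable-gene scale). Of 16 snoRNA host genes, non-coding transcripts with snoRNAs in their introns, 8 fell and 0 were higher, led by SNHG12 (−2.15). Among 3 long non-coding RNAs known to stay in the nucleus, KCNQ1OT1 fell by 2.95 on the log2 scale, from 92.7, 69.9 and 117 CPM to 14.5, 10.4 and 8.79 CPM. NEAT1 was higher by 1.08 and MALAT1 by 0.70. NEAT1 stayed above 0 on the stable-gene scale (0.34) and MALAT1 did not (−0.04), and MALAT1 was not called without replicate 2 at 0 h (0.58).

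Genes that were higher by several-fold formed a small set apart. By the naming rule 12 genes stood at the top, and 7 of these had at most 3 counts over the 0 h libraries. PBOV1 had 0 counts at 0 h in all 3 libraries and 9.71, 12.6 and 18.8 CPM at 3 h, at least 47.8-fold higher against the floor of 3 counts per library. By the same bound COL21A1, a collagen gene, was at least 31.6-fold higher, FAM107A 20.2-fold, SLC2A2, a glucose transporter of liver and pancreas, 19.9-fold and EVADR, a long non-coding RNA, 19.6-fold. LEP, the hormone leptin, went from 3 to 705 counts (ratio of levels 265, counting interval 90.4 to 1289), and LMOD3, a muscle actin nucleator, from 2 to 346 (195, interval 53.6 to 1618). DCAF4L2 was higher by 6.04 on the log2 scale, IL1R2 by 5.44, CCDC152 by 3.38, SNORD13 by 2.84 and SNORD45A by 2.83. Several of these genes are known from tissues other than melanoma.

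The same genes were looked at in the other groups. The summed counts of the 10 of these genes that are not snoRNAs were followed in all 72 libraries. At 0 h they were 6 to 41 in 23 of the 24 libraries. The exception was replicate 3 of the pQ TCHX group with 401, a library with counts for 19940 genes. At 3 h the sums were 782 to 1958 in all 24 libraries and at 5 h 253 to 692 in all 24. The genes had been chosen in the pQ T libraries at 0 and 3 h, so for these libraries the order of the sums was set by the choice. In the other libraries, too, every 3 h sum was above every 0 h sum. Per library size, the 5 h sums (28.1 to 82.5 CPM) lay mostly below those at 3 h (78.3 to 149 CPM).

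Features of the mRNA that the grouping had not used were compared across deciles of the change, from the fastest to the slowest, over 9346 protein-coding genes with at least 50 counts and an annotated transcript. In the fastest decile 47.4% of genes had TATTTAT in the 3′UTR, searched on the sense strand, in the slowest 21.8%, and in all 38.5%. TATTTAT holds the shorter ATTTA, which was found in 86.7%, 47.5% and 76.3%. The share with TATTTAT was as high in the second decile, with 50.9%, so it did not set the fastest genes apart from the next. Length moved with it, since the median 3′UTR was 1685 bases in the fastest decile, 662 in the slowest and 1457 in all. Per kb of 3′UTR the fastest decile had 0.382 copies of TATTTAT, the second 0.400, the slowest 0.241 and all genes 0.331. The slowest decile thus stood further from all genes than the fastest did. The parts of length and motif were not separated. IER2, HES1, GADD45B and DDIT4, all among the fast genes above, had 0 ATTTA in the annotated 3′UTR, as did GAPDH.

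The coding part differed too. The median number of exon junctions per kb of coding sequence was 2.63 in the fastest decile, 7.42 in the slowest and 6.599 in all, and over the first 4 deciles it was 2.63, 4.89, 5.78 and 6.50. Genes with a single exon made up 6.42% of the fastest decile and 0.963% of the slowest. The median GC content at the third codon position was 55.0% in the fastest decile, 50.1% in the second and 72.2% in the slowest, against 56.5% in all. ZNF genes, which have a long last exon, made up 15.95% of the fastest decile and 2.70% of all genes. Without them, the other 785 genes of the fastest decile had TATTTAT in 48.2%, a median of 2.89 junctions per kb and 56.9% GC at the third position. These are descriptions over genes that share base composition and length, with no test.

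**Figure D4:**
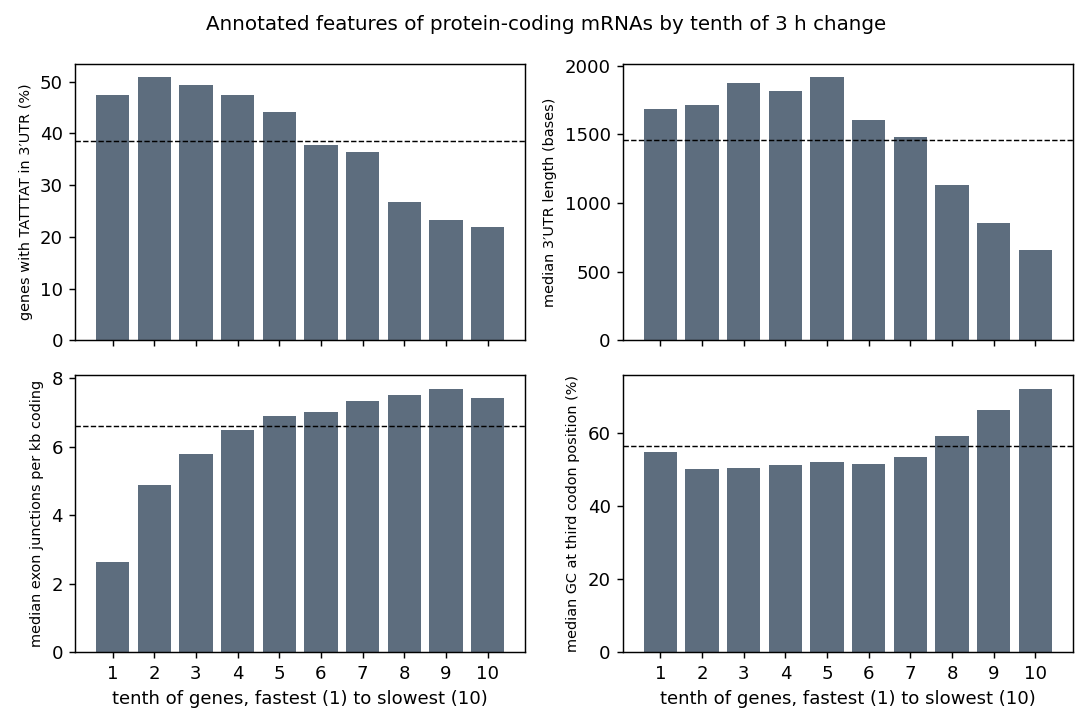
Features of annotated transcripts (vertical axes, one panel each for the share with TATTTAT, 3′UTR length, exon junctions per kb of coding sequence and GC at the third codon position) by decile of the 3 h change, fastest at the left, with a dashed line for all genes. Junctions per kb are 2.63 in the fastest decile and 7.42 in the slowest, and the share with TATTTAT goes from 47.4% to 21.8%.

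The dependence of these changes on translation was examined by the difference of the 3 h change between the TCHX and the T arm in pQ cells, over 12 libraries and 12980 genes. With cycloheximide 387 genes were higher (2.98%) and 13 lower (0.1%) than without it. Leaving out replicate 3 of pQ TCHX at 0 h, which stood apart above, gave 422 and 14. Of the AP-1 list 11 of 21 genes were higher with cycloheximide, and its median change was −0.53 in the TCHX arm, against −2.11 in the T arm. Both arms hold their own 0 h libraries. Of the ERK feedback list 8 of 18 were higher, of the C/EBP list 4 of 5 and of the ZNF list 48 of 359. Of 73 ribosomal protein genes 0 were higher and 1 was lower.

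DUSP6 showed the clearest difference. In the TCHX arm it stood at 334, 283 and 167 CPM at 0 h and at 149, 152 and 194 CPM at 3 h. The groups overlapped there only through replicate 3 at 0 h, the library that stood apart above. In the T arm DUSP6 fell to 5.89 to 7.49 CPM. The difference of the changes was 4.82 ± 0.282 (adjusted p = 1.25e-07). GADD45B had 9.41 to 10.4 CPM at 0 h and 6.73 to 11.9 CPM at 3 h with cycloheximide, a difference of 4.82 ± 0.393. ADM differed by 4.79, MYC by 3.85, RIPK4, a kinase of epithelial differentiation, by 3.15 and JUN by 3.00. IER5 differed by 2.75, ZNF503 by 2.65 and IER2 by 2.28. ZNF503 had 36.1 to 54.5 CPM at 0 h and 38.4 to 41.2 CPM at 3 h with cycloheximide. These ranges also overlapped only through replicate 3 at 0 h (36.1 CPM), beside 49.8 and 54.5 CPM in the others.

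Part of the loss remained with cycloheximide for several of the genes just named. In the TCHX arm the mean level of MYC was 12.1 CPM at 0 h and 3.32 CPM at 3 h. For IER5 these means were 48.2 and 24.8 CPM, for JUN 28.1 and 16.4 CPM and for IER2 90.1 and 54.2 CPM. NFKBIA and MCL1 kept part of their loss as well. NFKBIA changed by −1.89 with cycloheximide and by −4.56 without it, in the joint fit (difference 2.67 ± 0.223), and MCL1 by −0.97 against −2.77 (difference 1.80 ± 0.23). For MIR17HG and NFKBIZ the difference did not pass the test, with 0.86 ± 0.696 (adjusted p = 0.617) and 0.88 ± 0.654 (adjusted p = 0.578), and both had changes below −4 with cycloheximide as well (−4.63 and −4.04). FOS differed by 2.40 ± 0.888, which was not called (adjusted p = 0.204) but was called with the replicate block (adjusted p = 0.033). It rests on few counts.

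Of the 13 genes that were lower with cycloheximide, NDUFC2, a subunit of complex I, differed by −0.66 and INO80E, a subunit of a chromatin remodeller, by −0.49. These were small differences. On the stable-gene scale neither was called (−0.49 and −0.35), and leaving out 1 of the 12 libraries removed the call in 6 fits for NDUFC2 and in 10 for INO80E. With the replicate block 95 genes were lower in place of 13.

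**Figure D5:**
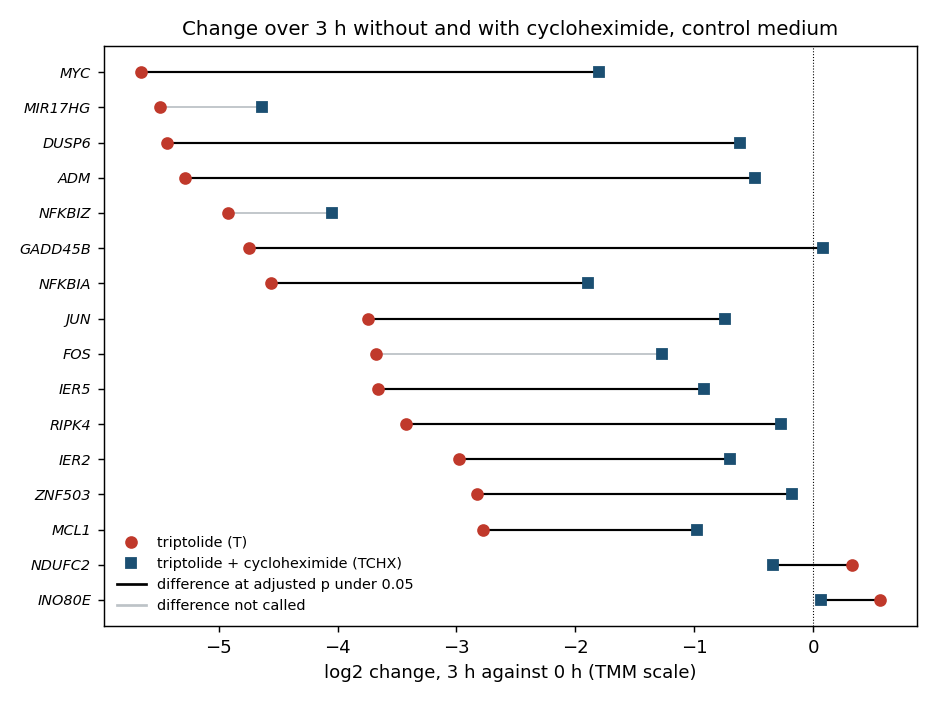
Log2 change at 3 h on the TMM scale (horizontal axis) for 16 named genes in pQ cells, with a red circle for triptolide alone, a blue square for triptolide with cycloheximide, and a black line between them where the difference was called and a grey one where it was not. The pair is farthest apart for DUSP6, GADD45B and ADM and close for MIR17HG and NFKBIZ.

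The siGL2 libraries, which share none with pQ, gave a second view of the same decay in A375. Across 9981 genes with at least 50 counts the 3 h changes correlated with Pearson r = 0.898, a description over genes that share composition and length. Of the 937 genes called with a fall over 2-fold in pQ, 925 had a negative change in siGL2. The median siGL2 change over 12869 genes was 0.013. The AP-1 median was −1.68 in siGL2, that of the ZNF genes −1.05 and that of the ribosomal proteins 0.20. The medium change and the transfection differ between the 2 experiments, and their parts cannot be told apart.

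The difference of the changes was tested over 12 libraries and 12869 genes. It was called for 6 genes with a more negative change in pQ (0.0466%) and 7 with a less negative one (0.0544%), with 29 less and 22 more negative under the replicate block. CDKN1B, the cell cycle inhibitor p27, had 43.5, 38.7 and 36.8 CPM at 0 h in pQ and 2.11, 3.65 and 1.60 CPM at 3 h, while in siGL2 it had 32.5, 27.2 and 30.4 CPM and then 13.9, 12.5 and 9.15 CPM. The change was 2.65 lower in pQ on the log2 scale, written −2.65 ± 0.297 (adjusted p = 9.55e-05). C2orf69 differed by −1.80 ± 0.162, ZNF367 by −1.30, ZNF267 by −1.67 and HMGA2, an architectural chromatin protein, by −0.62. HMGA2 had 355 to 378 CPM at 0 h in pQ and 1184 to 1297 CPM in siGL2, so its level already differed before triptolide.

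IMP3, a protein of the small-subunit processome, changed the other way. It had 249, 267 and 263 CPM at 0 h and 159, 169 and 153 CPM at 3 h in pQ, and 174, 161 and 172 CPM and then 47.4, 57.7 and 46.7 CPM in siGL2, a difference of 1.08 ± 0.124 (adjusted p = 9.55e-05). The same direction was seen for MRFAP1L1 (0.89), CHERP (1.02), KMT5A (1.23), AMMECR1L (1.76), ZNF768 (1.33) and RPUSD2 (2.47). As with HMGA2, levels at 0 h already differed for some of these genes. CHERP had 76.2 to 104 CPM at 0 h in the pQ TCHX arm and 39.3 to 44.6 CPM in siGL2. KMT5A had 40.9 to 47.6 CPM and 15.8 to 17.6 CPM. ZNF768, ZNF267 and RPUSD2 were named because so few genes were called, after their values were seen.

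The 5 h libraries share the 0 h libraries with the comparison above and are given as values only. The AP-1 median was −3.12 at 5 h, that of the ZNF genes −1.47 and that of the ribosomal proteins 0.37 relative to the typical gene. DUSP6 was at −6.67 and MCL1 at −4.72. Replicate 3 at 5 h stood apart from the others, for example with 138 CPM of RPS7 against 1330 and 1080 CPM, and 5 h values without it are among the alternatives.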

How the data were processed

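The deposited values are raw counts per gene for 72 libraries. Per the study's methods and the labels, the authors trimmed the forward QuantSeq reads (fastp 0.20.1), mapped them to GRCh38.p13 (HISAT2 2.2.1) and counted them over exons (HTSeq 0.13.5). The strand setting is not given in the sources used here. No molecular identifiers were stated, so intervals and floors cover counting error only. The table had 44659 gene names, 0 unmapped sample columns and 0 spike-in names, so levels are relative. Library totals are given above. Groups came from the sample titles.

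Genes passing filterByExpr were tested with edgeR 4.0.16 in R 4.3.3 (quasi-likelihood F-test, TMM scaling, 6 libraries, no replicate term), with Benjamini-Hochberg adjusted p and a threshold of 0.05. Arm by time and condition by time interactions used 12 libraries each. SE is the size of the change over the square root of F. CPM were computed on all counts. A floor was 3 counts per library. The fits were checked on simulated counts. The main tests did not use pairing, and counts with the replicate block are given beside them. Same-numbered samples were treated as pairs only in the naming rule and the pair medians. The reason was that over 6981 genes above 16 CPM their deviations correlated at 0.226, 0.298 and 0.486. Every sample correlated best with its own number. Over all 12309 tested genes these values were 0.085, 0.097 and 0.195.

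The members and the 53 gene lists were chosen with earlier results of these data known. The named genes were the 12 lowest and 12 highest changes among called genes that moved alike in all 3 pairs and averaged 50 or more counts at one of the times, up to 3 lowest and highest members of a list, 9 genes always shown, and the 5 smallest p per direction of each interaction. Other genes were named because their count was small. Some genes that met this rule are not reported here. Features came from GENCODE transcripts of GRCh38, matched to 10774 of 10799 protein-coding genes (99.8%). The alternatives tried were other size factors, library totals, DESeq2 1.42.0, no filter, the replicate block, the stable-gene scale, a test against 1.5-fold, 9 libraries, and leaving out each library.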

Additional observations from a re-analysis of the deposited data

Results flagged for a closer look

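The 3 h change differed between the arms in pQ cells for 13 named genes, by the edgeR interaction test, and for 12 named genes between pQ and siGL2 cells in the T arm. With cycloheximide the log2 change was higher for GADD45B by 4.82, DUSP6 by 4.82, ADM by 4.79, MYC by 3.85, RIPK4 by 3.15, JUN by 3.00, IER5 by 2.75, NFKBIA by 2.67, ZNF503 by 2.65, IER2 by 2.28 and MCL1 by 1.80. The difference had the other sign for NDUFC2 (−0.66) and INO80E (−0.49).

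Between the experiments the change in pQ was the more negative one for CDKN1B (−2.65), C2orf69 (−1.80), ZNF267 (−1.67), ZNF367 (−1.30) and HMGA2 (−0.62). It was the less negative one for RPUSD2 (2.47), AMMECR1L (1.76), ZNF768 (1.33), KMT5A (1.23), IMP3 (1.08), CHERP (1.02) and MRFAP1L1 (0.89). Leaving out 1 of the 12 libraries removed the call of ZNF768 in 9 fits, of RPUSD2 in 8, of AMMECR1L in 3 and of ZNF267 in 1. The other 8 named here kept their call in all 12 such fits.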

How the results depend on the processing

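The number of genes lower at 3 h was 1821. It was 750 against a 1.5-fold threshold and 758 with all 9 pQ T libraries, and it was 9576 on the stable-gene scale and 10128 with genes stable at both times. The number of higher genes was 1064. It was 99 against a 1.5-fold threshold, 117 with 9 libraries, 340 with library totals, 96 on each stable-gene scale and 1873 with the replicate block. Leaving out each library gave 1350 to 1820 lower and 491 to 990 higher genes, with 491 without replicate 2 at 0 h and 637 without replicate 1 at 0 h. Library totals moved the median of the tested genes by −0.11. For cycloheximide, the 13 lower genes became 56 with DESeq2, 8 with library totals, 215 without a filter, 95 with the replicate block and 4 on the stable-gene scale, and without each library 1 (replicate 2 of pQ T at 0 h) to 51 (replicate 2 of pQ TCHX at 0 h) while the 387 higher ones became 263 to 422. Between pQ and siGL2 the 7 higher and 6 lower genes became 16 and 15 with DESeq2, 28 and 32 without a filter, 29 and 22 with the replicate block and, without each library, 4 (without replicate 2 of pQ T at 0 h) to 8 and 5 to 10 (without replicate 3 of siGL2 T at 3 h). The replicate block, besides the counts above, added a call for FOS with cycloheximide (adjusted p = 0.033) and changed no other call of a named gene. Class medians without each library were −2.16 to −1.92 for AP-1, −1.996 to −1.53 for ID and TGF-beta feedback, −1.91 to −1.63 for ZFP36 and BTG/TOB, 0.20 to 0.23 for ribosomal proteins, 0.16 to 0.23 for glycolysis and 0.18 to 0.21 for the respiratory chain. The ZFP36 and BTG/TOB median was −1.25 over members with at least 50 counts. Taken relative to the median of all tested genes, and with no library left out, these classes otherwise moved by less than the spread between pairs. Some fits that left out 1 library moved 4 of them by more than that spread. These were AP-1 (SD 0.18), ID and TGF-beta feedback (SD 0.21), glycolysis (SD 0.044) and the respiratory chain (SD 0.0096). Their own medians shift with all genes on the stable-gene scale.

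Values above 0 on the TMM scale that turned negative on the stable-gene scale and with genes stable at both times were ACTB −0.54 and −0.63, DDB2 −0.36 and −0.46, EEF1A1 −0.60 and −0.71, ETV4 −0.38 and −0.47, GAPDH −0.32 and −0.41, MALAT1 −0.0389 and −0.10, NDUFA13 −0.22 and −0.32, PABPC1 −0.29 and −0.37, RPL27A −0.29 and −0.37, RPS10 −0.25 and −0.34, S100A1 −0.30 and −0.38, S100B −0.48 and −0.58, SHMT2 −0.35 and −0.45, SLC7A5 −0.40 and −0.47, SOX5 −0.32 and −0.42, TPI1 −0.36 and −0.46, ZNF414 −0.19 and −0.27, ZNF511 −0.32 and −0.42. EEF1A1 was also −0.00821 with library totals. The cause was the choice of reference, which shifts all genes alike. At 5 h, without replicate 3, which was left out after its profile was seen, the medians were −3.14 for AP-1, −1.61 for the ZNF genes and 0.47 for ribosomal proteins. Genes with few counts at 3 h have the least certain fall.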
